A study of Mus musculus with 27 samples.

Results

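The effect of dietary arsenic on RNA levels was compared between the colon and the ileum of mice. For each gene the arsenic effect was the log2 ratio of arsenic-fed to control libraries within a region, and the quantity tested was the colon effect minus the ileum effect. A positive difference therefore means a more positive arsenic effect in the colon than in the ileum. The comparison used 18 of the 27 libraries of the series and 17481 of 52550 genes in the deposited table, those with enough counts to be tested. Male C57BL/6 mice free of specific pathogens entered at an age of 6 weeks, were acclimatized for 7 days and were then kept for 60 days on one of 2 diets, with 10 mice per diet. Controls ate standard feed. The other diet was the same feed with 30 µg/g total arsenic, of which 72.7% was sodium arsenite, 19% dimethylarsinic acid (DMA), 7.3% arsenate and 1% monomethylarsonic acid (MMA). There were 4 control and 5 arsenic libraries of the ileum, and 5 control and 4 arsenic libraries of the colon. The labels do not say whether libraries with the same number in both regions came from the same mouse, so p-values measure the spread between these libraries.

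The ileum is the last part of the small intestine, where bile acids are taken back up, and the colon recovers water and salts and houses most gut bacteria. Cells methylate inorganic arsenic through the methyltransferase As3mt and export it through ABC transporters, and trivalent arsenic binds the thiols of proteins. Metallothioneins bind metals and are induced by them, heat shock chaperones keep proteins folded, and the cholesterol synthesis genes are switched on together by the transcription factor SREBP2 when sterols run short. In bulk tissue, fewer cells of a type and less RNA per cell cannot be told apart.

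Several libraries stood apart by regional or other tissue markers. Levels are given as CPM, a library's counts scaled to a common total with TMM factors. Fabp6, the ileal bile acid binding protein, was at 6.44 CPM in ileum arsenic library 14 and 1.39 CPM in library 15, against 231.9 to 4537 CPM in the other 7 ileum libraries. Slc10a2, the ileal bile acid transporter, was at 8.53 and 4.45 CPM in those libraries, against 42.8 to 479.6 CPM in the others. Slc10a2 was also at 9.68 to 435.5 CPM in the 9 colon libraries, so it did not separate the regions here. Hoxb13, a marker of the distal colon, had 0 counts in colon control library 1, which allows up to 0.165 CPM (3 counts), and 42.4 to 250.5 CPM in the other 8 colon libraries. The pancreatic trypsinogen gene Prss2 was at 107.7, 86.3 and 15.7 CPM in colon control 2, colon control 3 and colon arsenic 11, and at most 0.55 CPM in the other colon libraries. Lyz1, a lysozyme of Paneth cells, was at 96.4 CPM in colon control 4 and at 2.81 to 7.84 CPM in the other colon libraries. The libraries held 15717600 to 18208518 counts, with 3.32 to 5.1% mitochondrial counts and TMM factors of 0.792 (ileum arsenic 15) to 1.08. The part of these libraries in the results was not tested beyond leaving them out, and those values stand beside some of the results.

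**Figure D1:**
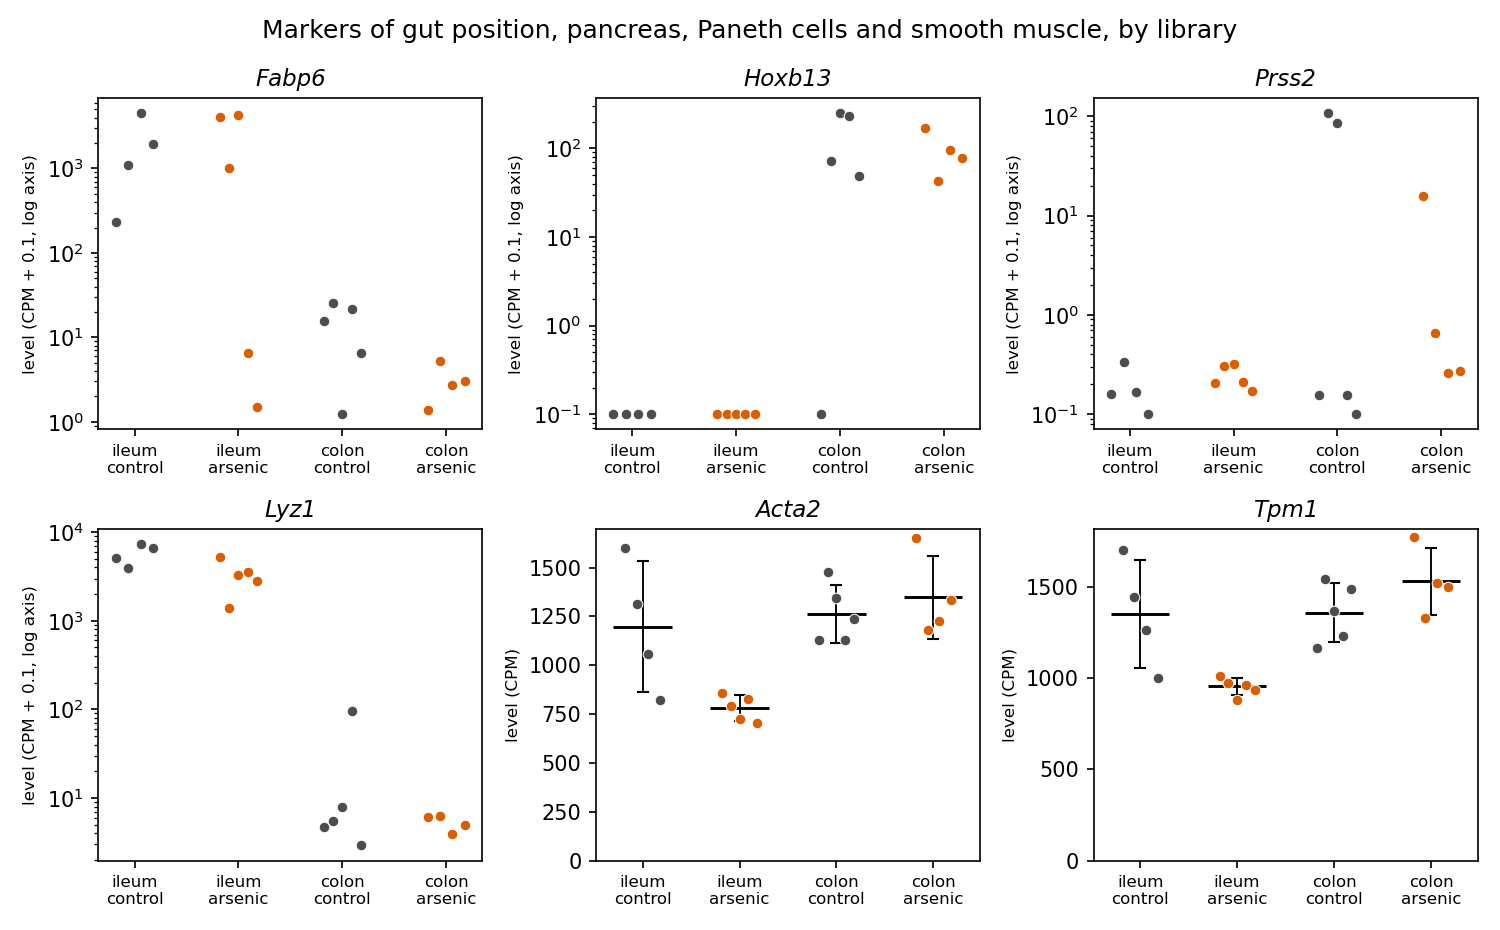
Level of 6 marker genes in each of the 18 libraries by region and diet; points are libraries, the first 4 panels have a log axis of CPM plus 0.1, and Acta2 and Tpm1 have a linear axis with the group mean and SD. Ileum arsenic libraries 14 and 15 lie at 6.44 and 1.39 CPM for Fabp6, and colon control 1 lies at 0 for Hoxb13.

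The arsenic effect differed between colon and ileum in 6 genes (0.0343% of the genes tested; edgeR quasi-likelihood test, Benjamini-Hochberg adjusted p under 0.05). The difference was positive for 2 of them, Zfp950 and Gpx7 (0.0114%), and negative for 4, Dhcr7, Chd4, Pigs and Bcorl1 (0.0229%). All 6 changed in the ileum, and Bcorl1 alone also changed in the colon, in the opposite direction. At an unadjusted p under 0.05 the difference was marked in 2424 genes (13.9%), 980 with a positive difference (5.61%) and 1444 with a negative one (8.26%), and with upper-quartile scaling that split was 1383 and 947. At an adjusted p under 0.1 it was marked in 72 (0.412%). The 6 differences shared an adjusted p of 0.0278 by edgeR. With upper-quartile scaling the count was 17, of which 11 were positive and 6 negative. Without ileum arsenic 14 and 15 the count was 2, with none of the 6 among them, and without the 3 colon libraries with Prss2 it was 0, where 1948 genes had an unadjusted p under 0.05 in edgeR. Leaving out 1 library at a time gave 0 to 87 genes, and 0 in 8 of 18 fits: those without ileum control 1, 2 or 3, ileum arsenic 13 or 14, or colon arsenic 12, 13 or 15. All 6 kept the sign of the difference in each of these fits.

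Dhcr7 encodes 7-dehydrocholesterol reductase, the enzyme of the last step of cholesterol synthesis. Its level in ileum control libraries 1, 2, 3 and 5 was 20.8, 21.9, 35.0 and 35.8 CPM, and in ileum arsenic libraries 11 to 15 it was 57.2, 51.5, 74.4, 79.3 and 67.6 CPM. In colon control libraries 1 to 5 it was 98.2, 91.9, 110.3, 87.6 and 105.6 CPM, and in colon arsenic libraries 11, 12, 13 and 15 it was 90.8, 81.3, 81.9 and 82.5 CPM. Every ileum arsenic library lay above every ileum control, while the colon groups overlapped. The means went from 28.4 ± 8.16 (SD, n = 4) to 66.0 ± 11.6 CPM (SD, n = 5) in the ileum and from 98.7 ± 9.36 (SD, n = 5) to 84.1 ± 4.48 CPM (SD, n = 4) in the colon. Dhcr7 rose by a log2 effect of 1.22 in the ileum (edgeR adjusted p = 0.000325) and had a log2 effect of -0.23 in the colon (edgeR adjusted p = 0.616). The difference was -1.45 ± 0.22 (SE, log2), with a 95% interval from -1.92 to -0.98.

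Chd4 encodes the chromatin remodelling ATPase of the NuRD complex. It stood at 101.7, 101.2, 101.0 and 117.7 CPM in the ileum controls and at 170.8, 193.1, 221.0, 213.4 and 233.9 CPM in the ileum arsenic libraries. The colon controls were at 204.7, 152.0, 142.3, 142.7 and 154.4 CPM and the colon arsenic libraries at 162.9, 140.2, 158.9 and 144.6 CPM. The ileum groups were separate, and the colon groups overlapped, with colon control 1 the highest colon library. Chd4 rose by 0.97 in the ileum (log2; edgeR adjusted p = 0.000181), its colon effect was -0.07 (edgeR adjusted p = 0.888), and the difference was -1.04 ± 0.16 (SE), with a 95% interval from -1.385 to -0.70.

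Pigs encodes a subunit of the transamidase that attaches glycosylphosphatidylinositol anchors to proteins. Its ileum controls were at 31.3, 31.1, 34.4 and 41.4 CPM and its ileum arsenic libraries at 53.9, 66.9, 68.6, 69.6 and 77.6 CPM. The ileum groups were separate, and the colon groups overlapped, at 47.0 to 53.3 CPM in controls and 52.1 to 54.5 CPM with arsenic. Pigs rose by 0.96 in the ileum (log2; edgeR adjusted p = 7.898e-05) and had a colon effect of 0.09 (edgeR adjusted p = 0.807), a difference of -0.87 ± 0.14 (SE; 95% interval -1.17 to -0.57).

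Bcorl1 encodes a transcriptional corepressor related to BCOR. The ileum controls were at 10.7, 8.95, 10.4 and 12.7 CPM and the ileum arsenic libraries at 18.7, 14.9, 20.9, 19.1 and 24.8 CPM. The colon controls were at 33.0, 19.4, 15.1, 19.7 and 22.1 CPM and the colon arsenic libraries at 12.01, 9.684, 13.9 and 13.95 CPM. Neither pair of groups overlapped, and the arsenic libraries were the higher ones in the ileum and the lower ones in the colon. Bcorl1 rose in the ileum by 0.88 (log2; edgeR adjusted p = 0.0101) and fell by 0.82 in the colon (edgeR adjusted p = 0.0487). The difference was -1.70 ± 0.27 (SE; 95% interval -2.28 to -1.12). The fall in the colon did not pass in 15 of 18 fits with 1 library left out, where the edgeR adjusted p ranged from 0.0282 to 0.202.

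Both genes with a positive difference fell in the ileum. Zfp950, a zinc finger protein gene, was at 88.9, 91.3, 80.4 and 64.7 CPM in the ileum controls and at 40.3, 28.6, 32.2, 34.2 and 36.5 CPM in the ileum arsenic libraries. In the colon it was at 38.2 to 45.4 CPM in controls and 32.7 to 43.2 CPM with arsenic, so the ileum arsenic libraries lay near the level of the colon. Zfp950 fell by 1.24 in the ileum (log2; edgeR adjusted p = 1.557e-05), its colon effect was -0.12 (edgeR adjusted p = 0.779), and the difference was 1.125 ± 0.165 (SE; 95% interval 0.78 to 1.47). Gpx7 encodes a glutathione peroxidase of the endoplasmic reticulum and was the least expressed of the 6. It stood at 8.82, 11.7, 11.5 and 10.0 CPM in the ileum controls and at 2.81, 4.08, 4.91, 3.39 and 3.87 CPM in the ileum arsenic libraries, against 2.98 to 5.75 CPM in colon controls and 4.04 to 4.65 CPM in colon arsenic libraries. Gpx7 fell by 1.46 in the ileum (log2; edgeR adjusted p = 0.000185), its colon effect was 0.13 (edgeR adjusted p = 0.863), and the difference was 1.59 ± 0.26 (SE; 95% interval 1.04 to 2.145).

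**Figure D2:**
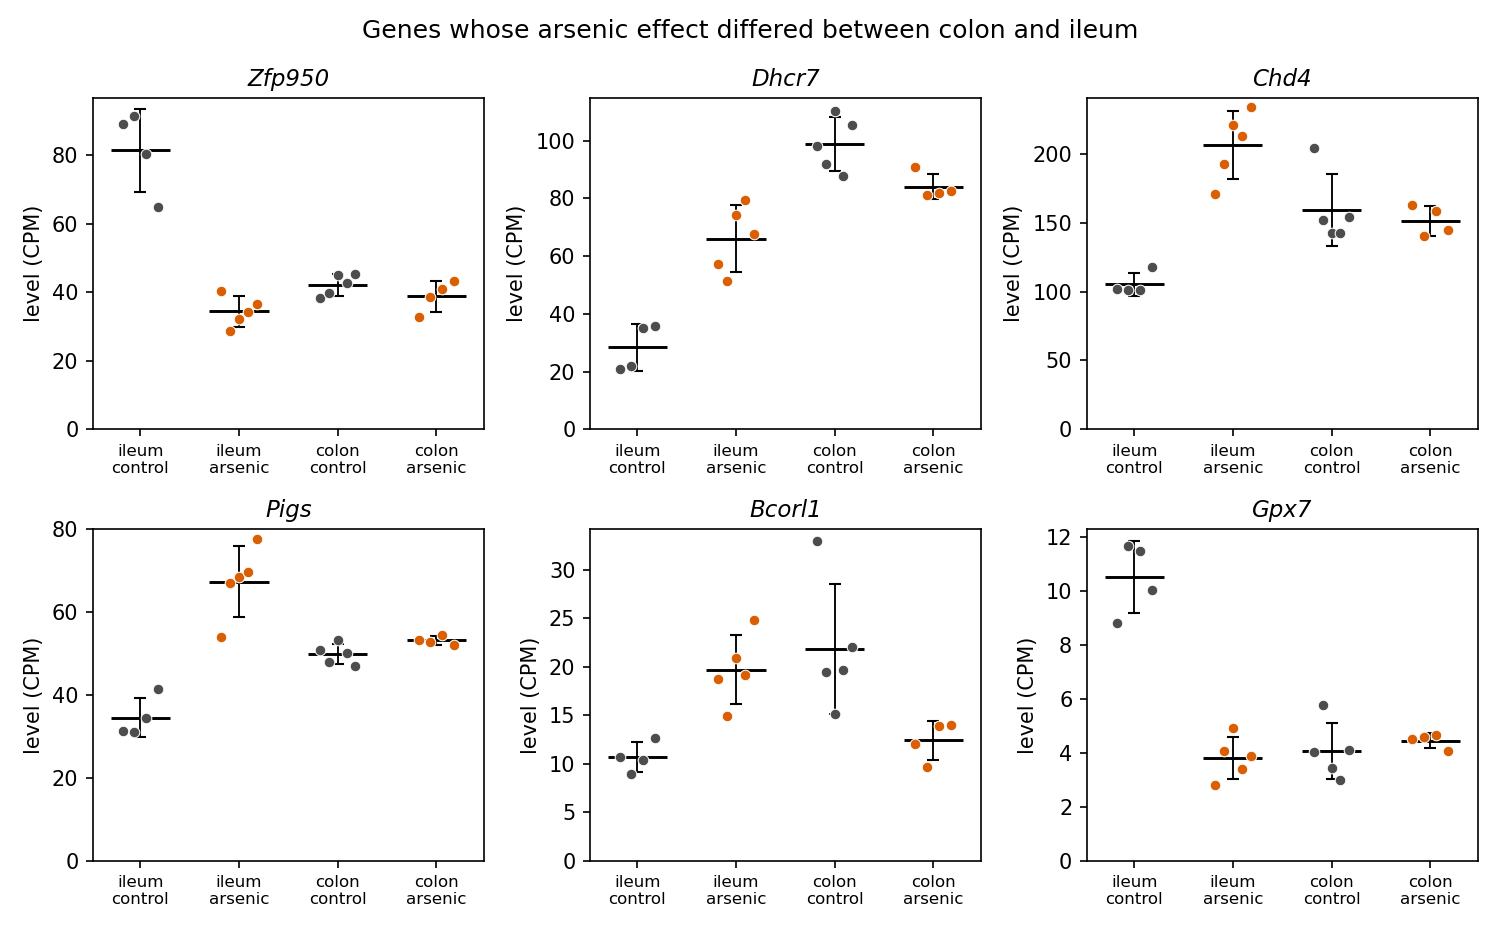
Level (CPM) of the 6 genes whose arsenic effect differed between colon and ileum, by region and diet; points are libraries, bars are the group mean and SD. Ileum groups are separate in all 6 panels, and colon groups are separate in the Bcorl1 panel, where colon controls span 15.1 to 33.0 CPM and colon arsenic libraries 9.684 to 13.95 CPM.

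The loss of the calls when libraries were removed came with little change in size for these 6 genes. Over the 18 fits with 1 library left out, the difference ranged from 1.06 to 1.22 for Zfp950, from -1.58 to -1.33 for Dhcr7, from -1.10 to -0.93 for Chd4, from -0.97 to -0.82 for Pigs and from -1.806 to -1.503 for Bcorl1, and for Gpx7 it ranged from 1.497 to 1.752 over all alternatives. The call was lost in 8 of those fits for Zfp950 and Chd4, 9 for Dhcr7 and Bcorl1, 12 for Gpx7 and 13 for Pigs, with edgeR adjusted p up to 0.114. Without ileum arsenic 14 and 15 the difference was 1.15 for Zfp950 (edgeR adjusted p = 0.0544), and -1.34 for Dhcr7, -0.96 for Chd4, -0.78 for Pigs, -1.59 for Bcorl1 and 1.55 for Gpx7 (edgeR adjusted p = 0.0994 for each). Without the 3 colon libraries with Prss2 the edgeR adjusted p ranged from 0.0911 for Zfp950, Bcorl1 and Gpx7 to 0.236 for Pigs.

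Within the regions, 1867 genes changed in the ileum (10.7% of genes tested), of which 1108 rose (6.34%) and 759 fell (4.34%). In the colon 220 changed (1.26%), 110 in each direction (0.629% each). Upper-quartile scaling gave 899 that rose and 997 that fell in the ileum, and 138 and 88 in the colon. Of the 1867 genes that changed in the ileum, 1406 (75.3%) had the same sign in the colon, and of the 220 that changed in the colon, 197 (89.5%) had the same sign in the ileum. The share of same-sign effects over all genes was not counted, so these shares stand without a baseline. Of 1753 genes that passed in the ileum and missed in the colon, 5 differed between regions by edgeR, with 988 at an unadjusted p under 0.05. Of 106 that passed in the colon and missed in the ileum, 0 differed by edgeR, with 65 at an unadjusted p under 0.05. Over all genes 13.9% had an unadjusted p under 0.05 for the difference. Both sets were picked by the same effects that make up the difference, so a higher share follows from the choice. Over all genes the correlation of both effects was r = 0.184, and over the 9814 genes that averaged 10 CPM or more it was r = 0.312. These are descriptions across genes, which are not independent, and the 2 effects share no library. Without the 3 colon libraries with Prss2 the colon count was 15, and it ranged from 68 (without colon arsenic 12) to 298 (without ileum arsenic 15) with 1 library left out. The colon count was 105 without colon control 4 and 291 without colon control 1. In the ileum the count was 741 without ileum control 2, and 1158 without ileum arsenic 14 and 15.

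**Figure D3:**
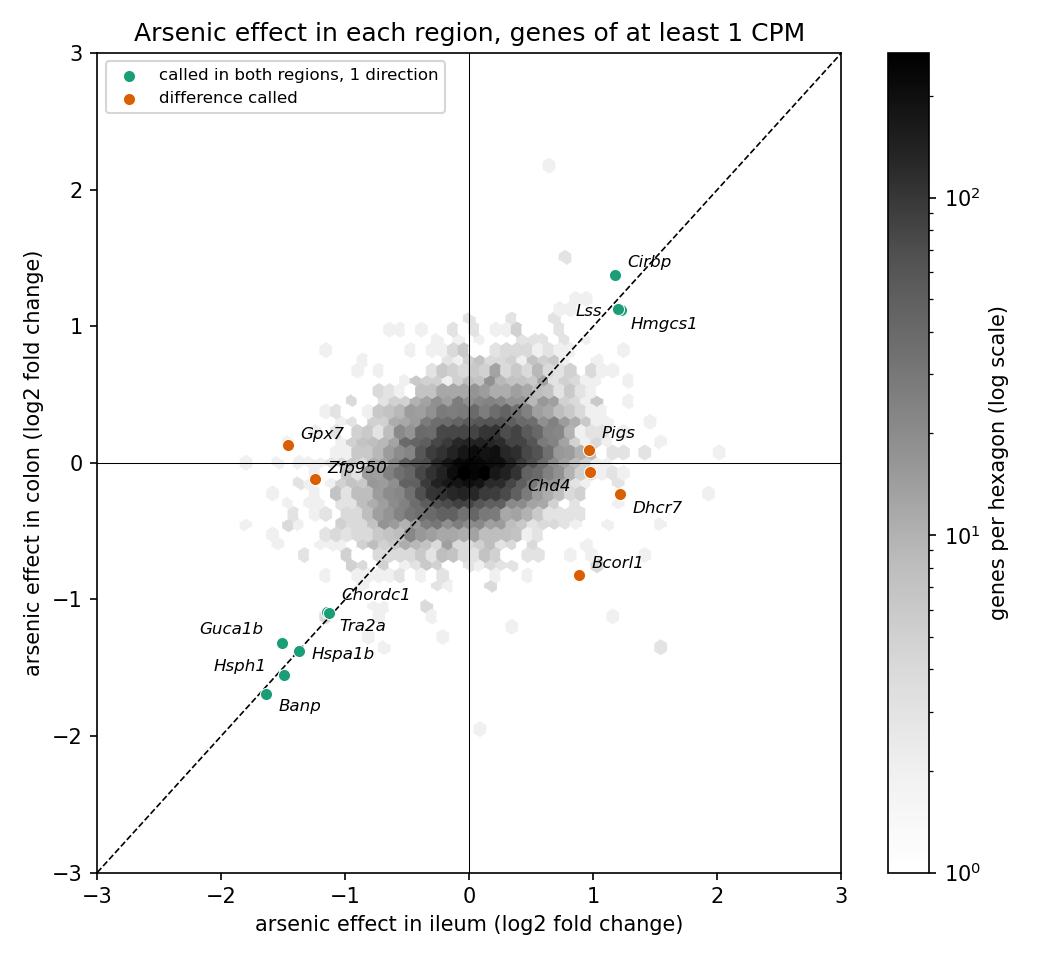
Arsenic effect (log2 fold change) in the ileum, horizontal, against that in the colon, vertical, for genes that averaged 1 CPM or more; grey hexagons count genes on a log scale, the dashed line marks equal effects, and 15161 of 15198 genes lie within the plotted range. The 9 labelled genes with large like effects lie along the dashed line, and the 6 genes with a called difference lie away from it, 5 of them near a colon effect of 0.

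A change in 1 direction passed in both regions for 113 genes (0.646%), of which 55 rose and 58 fell. Genes named from this class are among the 10 with the largest effects in both regions, and they were chosen for like effects, so their differences are a description. Banp, a nuclear DNA-binding protein, was at 14.8 to 20.3 CPM in ileum controls and 4.74 to 7.31 CPM with arsenic, and at 15.1 to 21.2 and 4.62 to 6.44 CPM in the colon. Banp fell by 1.64 in the ileum and by 1.69 in the colon (log2), a difference of -0.06 with a 95% interval from -0.49 to 0.37. Chordc1, a co-chaperone of HSP90, fell by 1.13 in the ileum and by 1.10 in the colon, with an interval of the difference from -0.26 to 0.33. Hsph1, a chaperone of the HSP110 family, fell by 1.49 and 1.56. Tra2a, a splicing regulator, fell by 1.15 and 1.09. Guca1b, a guanylate cyclase activator at 0.433 to 2.39 CPM, fell by 1.51 and 1.32, and its colon call was lost in 10 of 18 fits with 1 library left out. Cirbp, the cold-inducible RNA-binding protein, rose by 1.17 in the ileum and 1.38 in the colon: it was at 25.3 to 35.1 CPM in ileum controls, 56.8 to 82.0 CPM with arsenic, 22.2 to 33.1 CPM in colon controls and 63.7 to 78.5 CPM with arsenic. Regional differences within such intervals were not detectable at this number of libraries.

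Of 25 cholesterol synthesis genes tested, 18 rose in the ileum (6.34% of all genes rose there) and 8 rose in the colon (0.629%), and none fell in either. Dhcr7 was the member with a called difference between the regions. The median effect was 0.754 in the ileum and 0.731 in the colon (log2), against 0.0136 and -0.00984 over all genes. Hmgcs1, the synthase of hydroxymethylglutaryl-CoA, was at 116.4 to 218.8 CPM in ileum controls, 247.3 to 493.5 CPM with arsenic, 113.7 to 182.2 CPM in colon controls and 256.6 to 427.6 CPM with arsenic. Neither pair of its groups overlapped, and its effects were 1.20 and 1.13, with an interval of the difference from -0.73 to 0.60. Lss, lanosterol synthase, rose by 1.22 and 1.12. The colon calls of Hmgcs1 and Lss were each lost in 2 of 18 fits with 1 library left out. Unadjusted p for the difference was under 0.05 in 4 of the 25, all lower in the colon (8.26% of all genes). Beside Dhcr7 these were Mvk, mevalonate kinase, at 1.56 in the ileum and 0.70 in the colon (difference -0.86 ± 0.23, SE; edgeR adjusted p = 0.121), Srebf2, the gene of SREBP2 itself, at 1.03 and 0.22 (difference -0.80 ± 0.22, SE; edgeR adjusted p = 0.133), and Ebp, a sterol isomerase, at 0.26 and -0.11. Without the 3 colon libraries with Prss2, 0 cholesterol genes passed in the colon, where the median was 0.744.

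The stretch before the start site of Dhcr7, which rose in the ileum and did not pass in the colon, is shown beside that of Hmgcs1, which rose in both regions, and that of Hspa1b, a heat shock gene that fell in both. Each is 250 bases long, 5′ to 3′ on the gene's strand, from RefSeq on GRCm38.p6, and the build of the counts is not given in the sources used here. The Dhcr7 stretch is chr7:143822917-143823166 (plus strand, the first of 3 starts), that of Hmgcs1 chr13:119690101-119690350 (plus strand) and that of Hspa1b chr17:34959239-34959488 (minus strand). Capitals mark matches to TCACNCCAC, a form of the sterol regulatory element, in Hmgcs1 and to GAANNTTC, the core of the heat shock element, in Hspa1b, searched on both strands of all 3.
Dhcr7: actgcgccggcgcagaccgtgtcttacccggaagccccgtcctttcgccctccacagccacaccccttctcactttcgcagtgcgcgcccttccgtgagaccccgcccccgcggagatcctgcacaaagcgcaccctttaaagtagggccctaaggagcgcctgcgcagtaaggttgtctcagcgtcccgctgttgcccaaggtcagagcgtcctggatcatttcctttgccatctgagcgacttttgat
Hmgcs1: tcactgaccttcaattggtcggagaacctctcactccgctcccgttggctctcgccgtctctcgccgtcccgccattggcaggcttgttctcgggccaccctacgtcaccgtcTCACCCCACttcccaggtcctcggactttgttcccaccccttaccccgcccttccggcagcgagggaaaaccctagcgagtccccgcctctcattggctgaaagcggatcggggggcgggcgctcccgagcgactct
Hspa1b: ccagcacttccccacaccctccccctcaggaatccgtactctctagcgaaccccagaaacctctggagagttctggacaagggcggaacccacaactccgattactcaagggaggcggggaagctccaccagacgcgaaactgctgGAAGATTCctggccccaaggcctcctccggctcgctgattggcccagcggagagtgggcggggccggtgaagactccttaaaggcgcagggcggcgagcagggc
The sterol match lies 137 to 129 bases before the start of Hmgcs1, and the heat shock match 104 to 97 bases before that of Hspa1b. Of 32851 promoters in the table, 346 (1.05%) hold the first motif and 2199 (6.69%) the second. Neither is in the window of any of the 6 genes whose effect differed, and each is in 1 of the 7 genes with like effects that the table lists. A match is a description of letters and not a binding site.

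Of 25 heat shock chaperones tested, 12 fell in the colon (0.629% of all genes) and 9 in the ileum (4.34%), with medians of -0.463 and -0.414, and none of the 25 rose in either. Hspa1b, an inducible HSP70, was at 15.5 to 22.4 CPM in ileum controls and 6.13 to 7.91 CPM with arsenic, and at 69.8 to 155.8 and 37.7 to 41.7 CPM in the colon. Both pairs of groups were separate, although the colon level was the higher, and the effects were -1.37 and -1.38 (difference -0.002, 95% interval -0.50 to 0.50). Reads of Hspa1b and its near-identical copy Hspa1a may be split by the counting. The difference reached an unadjusted p under 0.05 in 8 chaperones, 6 lower in the colon (8.26% of all genes) and 2 higher (5.61%). Stip1, which links HSP70 and HSP90, fell by 0.81 in the colon (edgeR adjusted p = 8.327e-05) and had an ileum effect of -0.26 (edgeR adjusted p = 0.0519), a difference of -0.55 ± 0.12 (SE; edgeR adjusted p = 0.0972). Hsp90ab1, a constitutive HSP90, had effects of -0.38 in the colon and 0.40 in the ileum, neither of which passed. The small heat shock protein Hspb8 had effects of 0.22 and -0.41, which did not pass. With upper-quartile scaling 3 chaperones were lower in the colon at that p and 3 were higher, against 947 and 1383 of all genes. Without the 3 colon libraries with Prss2, 5 chaperones fell in the colon.

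**Figure D4:**
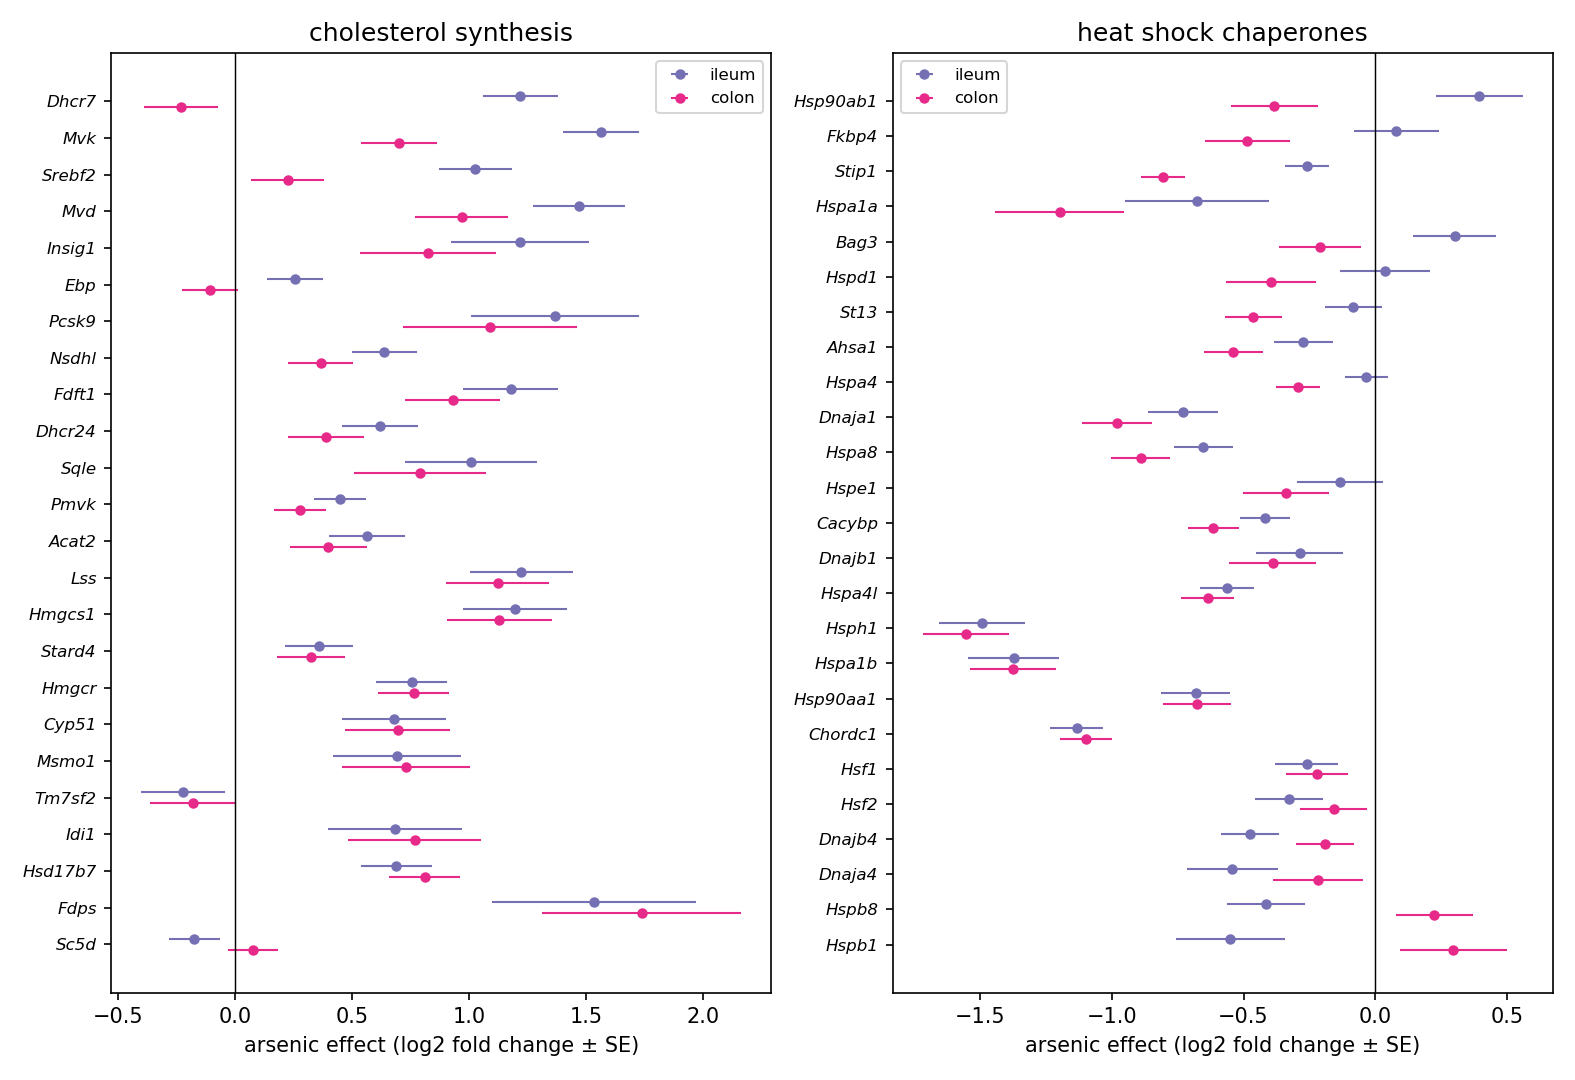
Arsenic effect (log2 fold change ± SE) in ileum and colon for 24 of the 25 cholesterol synthesis genes, left, and the 25 heat shock chaperones, right. Genes are ordered by the colon effect minus the ileum effect; Dhcr7 is the cholesterol gene with the largest gap, at 1.22 in the ileum and -0.23 in the colon.

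A list of endoplasmic reticulum stress genes and targets of the transcription factor ATF4 held 30 genes tested. Of these, 7 fell in the ileum (4.34% of all genes) and 5 in the colon (0.629%), with medians of -0.265 and -0.328. Hspa5, the chaperone BiP, fell by 0.85 in each region. Hyou1, a chaperone of the same compartment, fell by 0.81 in the colon (edgeR adjusted p = 0.00413) and had an ileum effect of -0.20 (edgeR adjusted p = 0.34), with a difference of -0.60 ± 0.18 (SE; edgeR adjusted p = 0.154). Without the 3 colon libraries with Prss2, 1 of the 30 fell in the colon and 4 in the ileum. Of 18 RNA-binding and splicing genes, 4 fell in each region (4.34% of all genes in the ileum and 0.629% in the colon) and 1, Cirbp, rose in each (6.34% and 0.629%). The difference had an unadjusted p under 0.05 in 3 of the 18, all higher in the colon (5.61% of all genes).

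Of 40 nuclear genes of oxidative phosphorylation tested, 11 rose in the ileum (6.34% of all genes), and 0 passed in the colon by edgeR, with 0 at an unadjusted p under 0.05. The ileum count was 1 without ileum arsenic 14 and 15, 4 without the 3 colon libraries with Prss2 and 7 without ileum control 1. Their medians were 0.209 and -0.0278, and 13 had an unadjusted p under 0.05 for a lower effect in the colon, against 8.26% of all genes. None passed the adjusted test of the difference. Cox5a, a subunit of cytochrome oxidase, rose by 0.53 in the ileum and had a colon effect of -0.06 (difference -0.58 ± 0.17, SE; edgeR adjusted p = 0.143). Uqcrc1, a subunit of complex III, rose by 0.88 and had a colon effect of 0.14 (edgeR adjusted p of the difference = 0.182). The count of 13 was 7 with upper-quartile scaling, 4 without ileum arsenic 14 and 15, 2 when colon control 1 was also left out and 6 without the 3 colon libraries with Prss2. Upper-quartile scaling moved the colon median to 0.00227. Of 45 ribosomal protein genes tested, 7 rose in the ileum (6.34% of all genes) and 0 passed in the colon by edgeR, with 0 at an unadjusted p under 0.05. The ileum count was 4 without ileum arsenic 14 and 15 and 4 without ileum control 1. For the difference, 7 had an unadjusted p under 0.05 for a lower effect in the colon (8.26% of all genes). Rplp2, of the ribosomal stalk, rose by 0.84 in the ileum and had a colon effect of 0.01 (difference -0.83 ± 0.22, SE; edgeR adjusted p = 0.121). Counts of ribosomal protein genes are uncertain because of their processed copies.

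The smooth muscle markers had a positive difference in all 20 genes tested, with a median of 0.592 (log2) against -0.0231 over all genes, and 15 of them had an unadjusted p under 0.05 (5.61% of all genes). None passed the adjusted test. The median effect was -0.405 in the ileum and 0.212 in the colon, and 2 genes fell in the ileum. Acta2, smooth muscle actin, fell by 0.62 in the ileum (edgeR adjusted p = 0.0217) with a colon effect of 0.09, and Tpm1, a tropomyosin, fell by 0.50 (edgeR adjusted p = 0.0277) with a colon effect of 0.17. The differences were 0.71 ± 0.23 for Acta2 (SE; edgeR adjusted p = 0.18) and 0.67 ± 0.20 for Tpm1 (SE; edgeR adjusted p = 0.145). The summed level of the 20 markers was 8090 to 15020 CPM in ileum controls, 8013 to 9030 CPM in ileum arsenic libraries, 10790 to 15200 CPM in colon controls and 12830 to 18760 CPM in colon arsenic libraries. Both pairs overlapped, with ileum control 1 the highest ileum library. Without ileum control 1, 6 of the 20 had an unadjusted p under 0.05, and neither Acta2 nor Tpm1 passed in the ileum. Beyond leaving it out, the part of ileum control 1 in the other differences was not tested.

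**Figure D5:**
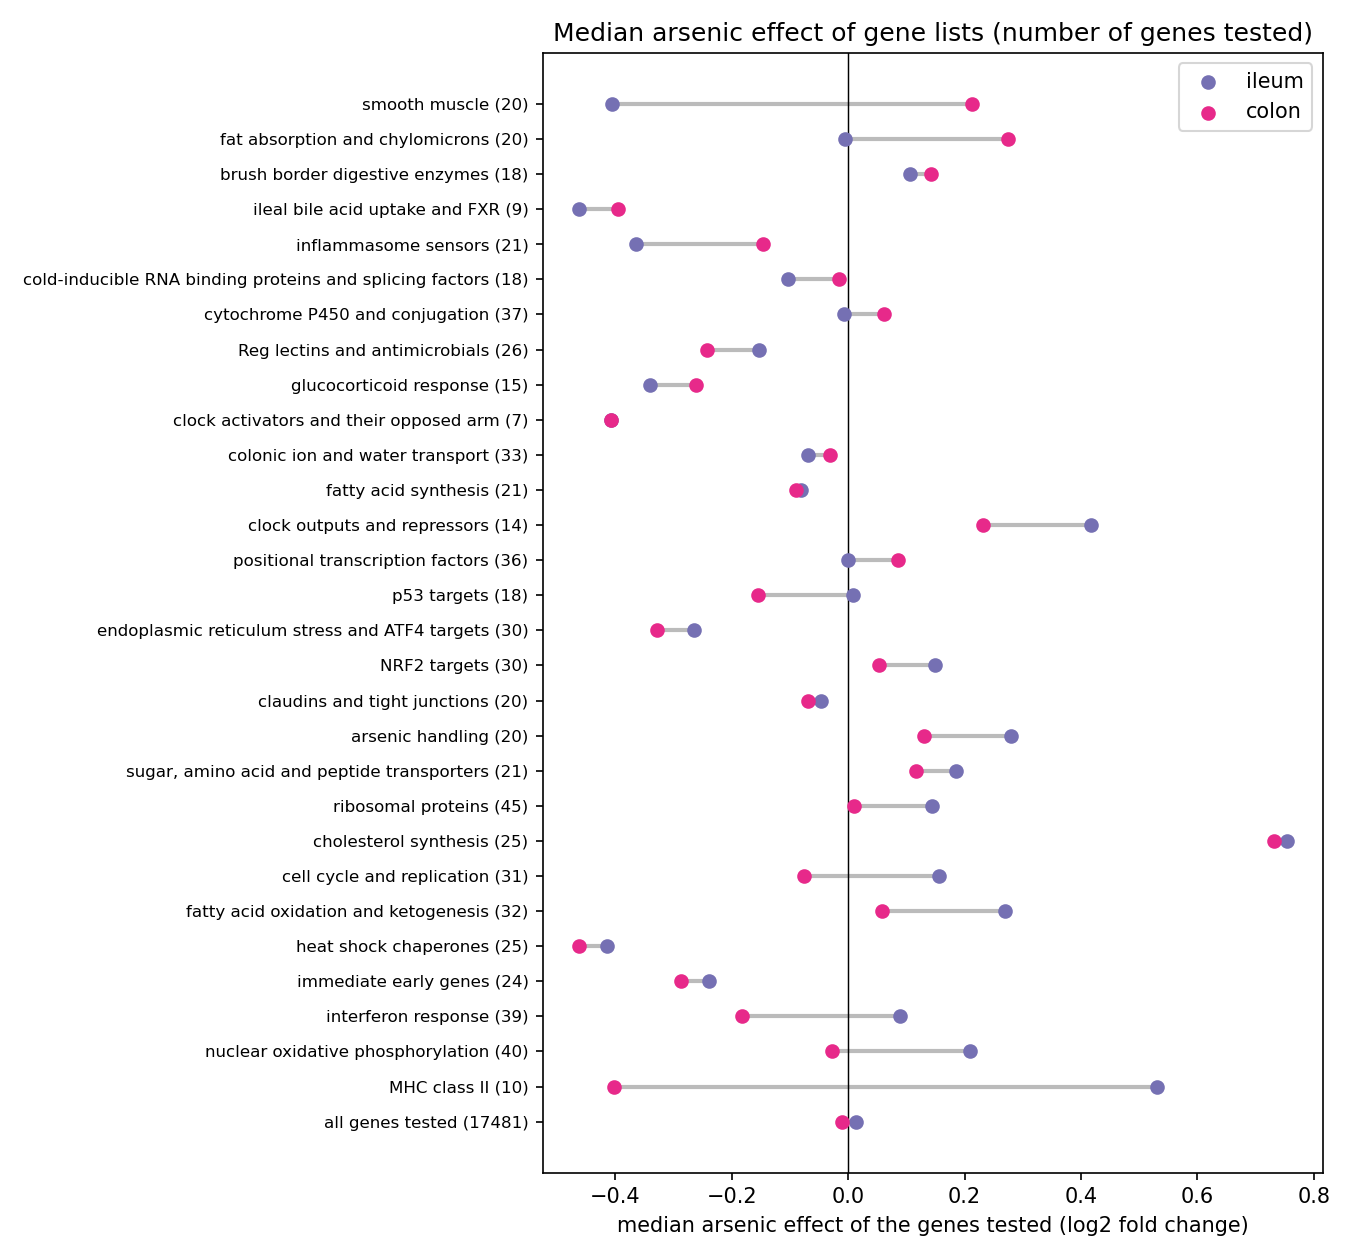
Median arsenic effect (log2 fold change) in ileum and colon, joined by a grey line, for all genes tested, the pathway lists and smooth muscle. The number of genes is in parentheses, and the other cell type and regional marker lists are not drawn. Among the lists drawn, cholesterol synthesis lies highest in both regions, at 0.754 and 0.731. Smooth muscle lies on opposite sides of 0, at -0.405 in the ileum and 0.212 in the colon. Of the lists not drawn, that of 6 erythrocyte genes was higher, at 0.991 in the ileum and 0.868 in the colon.

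Of 20 genes of arsenic handling, 5 rose (6.34% of all genes) and 1 fell (4.34%) in the ileum, and 1 rose in the colon (0.629%). In the ileum 3 rose and 0 fell by edgeR without ileum arsenic 14 and 15, without ileum control 1 and without the 3 colon libraries with Prss2, and in the last of these fits 0 rose in the colon. Mt1, a metallothionein, was at 36.9, 44.9, 43.3 and 38.3 CPM in ileum controls and at 106.6, 181.7, 118.6, 256.6 and 196.3 CPM in ileum arsenic libraries. In the colon it was at 60.1, 29.8, 17.7, 19.0 and 23.9 CPM in controls and at 49.0, 117.6, 63.0 and 81.3 CPM with arsenic. The ileum groups were separate, and the colon groups overlapped through colon control 1. Mt1 rose by 2.07 in the ileum (log2; edgeR adjusted p = 0.00292) and had a colon effect of 1.37 (edgeR adjusted p = 0.0651), which passed at 1.78 without colon control 1 (edgeR adjusted p = 0.00781). The difference was -0.71 ± 0.49 (SE), with a 95% interval from -1.74 to 0.33. As3mt, the arsenite methyltransferase, was at 49.3 to 58.0 CPM in ileum controls and 57.5 to 84.9 CPM with arsenic, and at 27.1 to 29.4 and 24.7 to 32.8 CPM in the colon. As3mt rose by 0.38 in the ileum (edgeR adjusted p = 0.0411), a call lost in 10 of 18 fits with 1 library left out, and had a colon effect of 0.02. Its difference was -0.36 ± 0.16 (SE), with an edgeR adjusted p of 0.328. Slco2b1, an organic anion uptake carrier, rose by 0.75 in the ileum with a colon effect of -0.06 (difference -0.81 ± 0.21, SE; edgeR adjusted p = 0.121). The export pump Abcc3 rose by 0.68 in the ileum and had a colon effect of 0.25.

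The other genes of arsenic and thiol metabolism that were to be reported whatever their result did not pass for the difference. Gclc, the catalytic subunit of the enzyme that makes the glutathione precursor, had effects of -0.36 in the ileum and 0.27 in the colon (difference 0.63 ± 0.27, SE; edgeR adjusted p = 0.308). The export pump Abcc2 had effects of -0.30 and 0.74 (difference 1.04 ± 0.49, SE; edgeR adjusted p = 0.362). Its ileum level was 149.0 to 227.3 CPM in 4 arsenic libraries and 537.7 CPM in ileum arsenic 15, and without that library Abcc2 fell by 0.79 in the ileum (edgeR adjusted p = 0.0366). Gsto1, a glutathione transferase that acts on arsenic species, had a difference of -0.61 ± 0.34 (SE). The differences were -0.22 ± 0.21 for Txnrd1, 0.22 ± 0.275 for Hmox1, -0.11 ± 0.43 for Nqo1, -0.18 ± 0.855 for Slc7a11 and 0.74 ± 1.28 for Aqp3 (SE), with edgeR adjusted p of 0.689 to 0.953. Aqp3 averaged 0.148 CPM in colon controls and 0.313 CPM in colon arsenic libraries, near the level of 3 counts. Colon arsenic 11 was at 0.866 CPM and the other colon arsenic libraries at 0.108 to 0.165 CPM.

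Of 21 inflammasome sensor genes tested, 5 fell in the ileum (4.34% of all genes), and 0 passed in the colon by edgeR, with 2 at an unadjusted p under 0.05. Nlrp9b, a sensor of the intestinal epithelium, was at 144.2, 142.4, 135.6 and 95.3 CPM in ileum controls and at 41.0, 29.1, 39.8, 18.1 and 47.1 CPM with arsenic. In the colon it was at 53.8 to 135.4 CPM in controls and 70.5 to 93.4 CPM with arsenic, so the ileum groups were separate and the colon groups overlapped. Nlrp9b fell by 1.89 in the ileum (log2; edgeR adjusted p = 0.000677) and had a colon effect of -0.30, a difference of 1.59 ± 0.38 (SE; edgeR adjusted p = 0.111). Alpk1, a kinase that senses bacterial sugars, fell by 1.73 in the ileum with a colon effect of -0.54 (difference 1.19 ± 0.32, SE; edgeR adjusted p = 0.121). Nlrp6 had the opposite sign, with effects of 0.22 in the ileum and -0.45 in the colon, neither of which passed.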

How the data were processed

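Poly-A RNA of ileum and colon was sequenced by the submitters as 150 bp paired-end reads. Values in the authors' deposited table are whole-number counts per Ensembl identifier, without normalization. HISAT2 2.1.0, SAMtools, HTSeq 0.6.0 and DESeq2 1.6.3 are listed in the submitters' processing notes. Strand setting, build and annotation are not given in the sources used here, which leaves overlapping and antisense genes uncertain. Symbols were joined for 52403 of 52550 identifiers, and the 147 others held at most 0.0059% of a library's counts.

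The 18 libraries were fitted together in R 4.3.3 with edgeR 4.0.16: filterByExpr (minimum count 10, minimum total 15), TMM scaling, robust quasi-likelihood F-tests on 1 mean per group and Benjamini-Hochberg adjustment over all genes at 0.05. The 2 region effects and their difference came from that fit, which had 14 residual degrees of freedom and a common biological coefficient of variation of 0.248. Standard errors are Wald errors from the quasi-likelihood fit. "Rose" and "fell" are used for genes past the threshold. The median SE of a difference was 0.275 (log2). Within-group correlations of log2 CPM were 0.934 to 0.987, and no 2 libraries agreed within sampling noise. On simulated counts for this difference (3 runs, at least 17258 genes, 200 changed in each), 33.7% of 2-fold and 68.7% of 4-fold changes were recovered and 4.27% of calls were false. Those counts were drawn independently, with the change placed in colon arsenic libraries only and without libraries that stand apart. The shares therefore may not hold for the real libraries.

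Named genes were the called genes of at least 1 CPM (up to 10 with the largest difference in each direction and up to 10 with the smallest p), 10 genes of arsenic and thiol metabolism, and the 10 genes with the largest like effects; predicted genes, pseudogenes and receptor segments were left out. From each of 51 lists the members with the smallest p for the difference are quoted as examples, and those examples were chosen after their values were seen. The comparison, members and lists were chosen with earlier results of these data known. Alternatives were RLE and upper-quartile scaling, other filters, limma 3.58.1 voom, DESeq2 1.42.0, a replicate block and libraries left out. Figures used matplotlib 3.10.9. Cecum libraries entered only a fit of all 27 libraries, whose values stand in the closing section. A few genes that the rules select are not reported here, and they stay in the counts and medians.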

Additional observations from a re-analysis of the deposited data

Results flagged for a closer look

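The arsenic effect differed between the regions, by the edgeR test of the difference, for 6 genes: by 1.12 for Zfp950, -1.45 for Dhcr7, -1.04 for Chd4, -0.87 for Pigs, -1.70 for Bcorl1 and 1.59 for Gpx7 (log2, colon minus ileum). The cecum, which the comparison did not use, gave further values in a fit of all 27 libraries, where 2021 of 17763 genes (11.4%) changed with arsenic there. Bcorl1 fell by 1.64 in the cecum, from 35.5 ± 4.42 (SD, n = 4) to 11.4 ± 1.25 CPM (SD, n = 5), with an edgeR adjusted p of 1.384e-06. Dhcr7 had a cecum effect of -0.35 ± 0.13 (SE; edgeR adjusted p = 0.0834), at 118.1 ± 6.51 against 92.4 ± 4.18 CPM, and its groups did not overlap. The cecum effects of Chd4 (-0.29), Zfp950 (-0.16), Pigs (-0.038) and Gpx7 (0.13) did not pass, with edgeR adjusted p of 0.0792, 0.408, 0.84 and 0.708.

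Of 104 sets of a named gene and a group, 13 held a library far from the others, where chance marks about 5% of such groups. Colon control 1 was such a library for As3mt (29.4 CPM against 27.1 to 27.6), Chd4 (204.7 against 142.3 to 154.4), Hmgcs1 (113.7 against 166.7 to 182.2) and Mt1 (60.1 against 17.7 to 29.8). Colon arsenic 12 was for Hmox1 (7.37 CPM against 5.14 to 5.43), Hspa1b (37.7 against 41.2 to 41.6) and Slc7a11 (1.10 against 1.68 to 1.73). Ileum arsenic 15 was for Abcc2 (537.7 CPM against 149.0 to 227.3) and Gclc (72.2 against 41.7 to 50.1). Colon arsenic 11 was for Aqp3 (0.866 CPM against 0.108 to 0.165) and Dhcr7 (90.8 against 81.3 to 82.5). The others were Abcc2 in colon control 4 (11.7 CPM against 5.46 to 6.34) and Chd4 in ileum control 5 (117.7 against 101.0 to 101.7).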

How the results depend on the processing

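All 6 genes with a called difference were also called with RLE factors (6 genes in all), a filter of 1 CPM (6), upper-quartile factors (17) and no filter (12). They were also called with all 27 libraries in 1 fit (399), DESeq2 (342) and limma voom with sample weights (231). At an adjusted p under 0.1 in the main edgeR fit the count was 72, which holds the 6 by construction. The count was 2 without ileum arsenic 14 and 15, 4 when colon control 1 was also left out, and 0 by edgeR without colon control 2 and 3 and colon arsenic 11 (1948 at an unadjusted p under 0.05). These left-out sets and the looser threshold were chosen after seeing the data. The colon count of 220 was 109 with no filter, 493 with 27 libraries, 482 with DESeq2, 969 with voom weights, 107 with the colon libraries alone, 455 without ileum arsenic 14 and 15 and colon control 1, 15 without the 3 libraries with Prss2 and 412 at an adjusted p under 0.1. The ileum count of 1867 was 2889, 1190 and 2864 with 27 libraries, the ileum libraries alone and the looser threshold, and 1158 without ileum arsenic 14 and 15. With 1 library left out, the counts were 0 to 87 for the difference, 68 to 298 in the colon and 741 to 2435 in the ileum. No called effect or difference of a named gene changed sign. Some that did not pass did, among them the differences of Mt1 (-0.74 to 0.049), Slc7a11 (-0.98 to 0.46) and Aqp3 (-0.48 to 1.31) and the colon effect of Gsto1 (-0.096 to 0.23), without counting fits with 1 library left out. The cause of these shifts was not tested.

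The labels number the libraries, but equal numbers in the 2 regions are not said to mark 1 mouse, and the deviations of the 8 same-numbered pairs correlated at -0.06 to 0.19, with 4 over 0.1. With the replicate block in edgeR (16 libraries) the count was 0 (2294 at an unadjusted p under 0.05), and with the replicate block as a random effect in limma (correlation 0.0943) it was 13, with all 6 genes among them. Of the 8 ileum libraries in pairs, 4 correlated best with their own number among the colon libraries of the same diet (5 control, 4 arsenic). How many would do so by chance was not computed, so this count does not settle whether the numbers pair the libraries. At this depth and number of libraries, 33.7% of simulated 2-fold differences were recovered, from counts drawn without libraries that stand apart.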

Other observations

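At an adjusted p under 0.1, 72 genes (0.412%) differed between the regions, 28 with a positive difference (0.16%) and 44 with a negative one (0.252%); they were looked at after their values were seen. Of these, 58 had changed in the ileum (39 rose, 19 fell), 11 in the colon, 1 in both and 4 in neither. Over all genes, 10.7% changed in the ileum (6.34% rose, 4.34% fell), 1.26% in the colon and 0.652% in both. The 72 were picked by the difference of these same effects, so a higher share of changed genes follows from the choice. Nectin1, a cell adhesion gene, rose by 1.14 in the ileum with a colon effect of -0.44 (difference -1.57), and Lad1, an anchoring filament gene, rose by 1.27 with a colon effect of 0.23 (difference -1.05). Smarca4 and Chd7, chromatin remodellers, rose by 0.58 and 0.50 in the ileum, with colon effects of -0.08 and -0.21. They were picked from the 72, and no list of chromatin genes was counted. Ak4, a mitochondrial adenylate kinase, fell by 1.06 in the ileum with a colon effect of -0.001. In the colon, Ccdc116 rose by 0.96 (edgeR adjusted p = 0.00118) with an ileum effect of -0.02, Tbce, a tubulin folding cofactor, rose by 0.52 with an ileum effect of -0.28, and L3mbtl3, a chromatin reader, fell by 0.70 with an ileum effect of -0.04.

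The lists of B cell, class II MHC and plasma cell genes had negative median differences with no called member by edgeR. Not all immune lists did: the median was 0.184 for inflammasome sensors and 0.136 for Reg lectins and antimicrobials. For B cell and follicle genes the median was -1.09 in 17 genes, 0 of them with an unadjusted p under 0.05 by edgeR, and for class II MHC genes it was -0.807 in 10 genes, of which 1 had such a p with a lower effect in the colon (8.26% of all genes). The summed B cell level spanned 29.9 to 299.9 CPM in ileum controls, 31.5 to 676.3 CPM in ileum arsenic libraries, 23.7 to 181.9 CPM in colon controls and 52.2 to 66.6 CPM in colon arsenic libraries, so all groups overlapped. For plasma cell genes the median was -0.895 in 12 genes, 1 with such a p. These shares lie near or below that of all genes. Igha, the heavy chain of IgA, had effects of 1.04 in the ileum and -0.78 in the colon, neither of which passed (difference -1.81 ± 0.62, SE; edgeR adjusted p = 0.222).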
